A study of Homo sapiens with 18 samples.

Results

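The genes described here encode the subunits of oxidative phosphorylation, the mitochondrial respiratory chain and ATP synthase, in HEK-293E cells, a human embryonic kidney line. They were taken as the protein-coding genes with symbols of the MT-ND, MT-CO, MT-ATP and MT-CYB series, of NDUFA, NDUFB, NDUFC, NDUFS and NDUFV, of SDHA to SDHD, of UQCR, of COX4 to COX8 and of ATP5, with CYC1 and CYCS. The rule found 104 genes of the 60623 in the count table: all 13 protein genes of mitochondrial DNA and 91 nuclear genes. By complex these were 46 genes of complex I, 4 of complex II, 11 of complex III, 1 for cytochrome c, 20 of complex IV and 22 of complex V. A further 179 genes had such symbols but were not protein-coding and were left out. NDUFAB1, COX assembly genes and other genes outside the rule were not included, and the rule also took in some that are not plain subunits. These were the readthrough genes NDUFC2-KCTD14 and ATP5MF-PTCD1, the inhibitor ATP5IF1, the supercomplex factor COX7A2L, and NDUFA4, which is named for complex I but sits in complex IV. All counts by complex follow the symbols, so NDUFA4 and its relative NDUFA4L2 are counted with complex I.

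The study sequenced RNA from 6 groups of 3 libraries each, 18 in all. All cells were first kept overnight in DMEM with 0.1% fetal bovine serum, called starved here. They were then collected starved, or fed again with high-glucose DMEM and 10% serum for 1 h or 4 h, and each of these 3 states was also sampled with Torin1, an ATP-competitive inhibitor of the kinase mTOR. Neither the dose of Torin1 nor its duration is given in the sources used here. The 3 libraries of a group are not stated to be separate cultures, so every p-value measures the spread between these libraries, which may be technical. Feeding raised the serum and renewed the medium at once, and the cells are 1 line.

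The respiratory chain passes electrons from NADH through complex I, or from succinate through complex II, to ubiquinone, then through complex III, cytochrome c and complex IV to oxygen, while complex V makes ATP from the resulting proton gradient. Some membrane subunits of complexes I, III, IV and V, many of them core subunits, are encoded in the mitochondrial genome. They are transcribed inside the organelle as long polycistronic RNAs that are cut at the tRNAs. All other subunits, and the whole of complex II, are transcribed in the nucleus and imported, so that each mixed complex draws on both genomes. mTOR complex 1 is known to promote mitochondrial gene expression and the translation of messages for mitochondrial proteins.

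The first gene of each of the mitochondrial pairs MT-ATP8 with MT-ATP6 and MT-ND4L with MT-ND4 is shown first, because 3 of these 4 genes carry the Torin1 result below. MT-ATP6 also meets MT-CO3 at its end, so that 5 of the 13 mitochondrial genes overlap another in the annotation. MT-ATP8, an accessory membrane subunit of complex V, lies at chrM:8366-8572 on the plus strand (GRCh38, GENCODE release 29), and its last 46 bases are also the first 46 bases of MT-ATP6, the proton channel subunit (capitals, chrM:8527-8572). MT-ND4L, a complex I membrane subunit, lies at chrM:10470-10766 on the plus strand and shares its last 7 bases with MT-ND4 (capitals, chrM:10760-10766).
MT-ATP8: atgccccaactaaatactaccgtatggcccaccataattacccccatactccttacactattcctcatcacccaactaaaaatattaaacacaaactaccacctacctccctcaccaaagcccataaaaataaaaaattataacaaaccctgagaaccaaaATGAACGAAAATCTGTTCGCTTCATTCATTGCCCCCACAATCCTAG
MT-ND4L: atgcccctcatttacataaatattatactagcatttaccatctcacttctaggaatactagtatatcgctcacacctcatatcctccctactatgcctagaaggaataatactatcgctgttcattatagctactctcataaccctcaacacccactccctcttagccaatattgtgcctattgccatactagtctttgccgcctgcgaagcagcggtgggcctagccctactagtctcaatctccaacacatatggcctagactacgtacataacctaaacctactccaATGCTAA
Each pair is carried on 1 bicistronic RNA in the cell, but the authors' counting gave each gene its own value. MT-ATP8 was given only 54.9 CPM (counts scaled to a fixed library size) per kb of transcript against 2425 for MT-ATP6, averaged over all libraries. MT-ND4L was given 472 CPM per kb against 2196 for MT-ND4. How reads were divided between the genes of a pair, and its part in the results, was not tested.

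Library totals ran from 10510680 to 13690036 counts. The 9 Torin1 libraries had from 15168 to 15724 genes with at least 10 reads, and the 9 untreated libraries from 14413 to 14888. Their TMM scaling factors, 1.02 to 1.07 and 0.931 to 0.980, also did not overlap, and the part of these differences in the Torin1 results was not tested beyond the other scalings given below. Of 7 genes typical of the HEK-293 line (PAX2, LHX1, LIN28B, VIM, KRT8, KRT18 and CDH2), all were detected in every library. PAX2 (0.715 to 4.37 CPM) and LHX1 (1.53 to 4.21 CPM) were low. Of 9 genes typical of fibroblasts, leukocytes or endothelium, 3 were detected in every library: COL1A1 (7.97 to 23.5 CPM), COL3A1 (0.179 to 10.6 CPM) and CD14 (0.0728 to 1.61 CPM). The others were at 0 in some of the 18 libraries, PTPRC in 15, DCN in 12, VWF in 11, PECAM1 in 6, COL1A2 in 5 and LUM in 4. Without Torin1 all 9 had a higher mean in starved than in 4 h fed cells, such as 3.88 and 0.651 CPM for COL3A1. With Torin1, COL3A1 averaged 0.623 CPM in starved and 2.19 CPM in 4 h fed cells. The part of these genes' source in the results was not tested. The 13 mitochondrial messages took from 1.46% to 3.40% of all counts and the nuclear subunit genes from 0.939% to 1.13%. In bulk RNA, fewer cells of a kind and less RNA per cell cannot be told apart, and every level is relative to the other RNA of its library.

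Per kb of transcript, averaged over all libraries, the highest level belonged to MT-CO1, the catalytic core of complex IV, with 4769 CPM per kb. MT-CO2 followed with 3851 and MT-CO3 with 2990.2 CPM per kb. The highest nuclear level was that of ATP5F1B, the catalytic beta subunit of ATP synthase, with 631 CPM per kb. Of the mitochondrial genes, MT-ND6 (the only one on the minus strand), MT-ND4L and MT-ATP8 lay below it. Of the 104 genes, 97 passed the filter on low counts: all 13 mitochondrial and 84 nuclear. The 7 that did not were mostly tissue-specific forms. NDUFA4L2 averaged 0.320 CPM, the lung form COX4I2, the muscle form COX6A2 and the testis form COX7B2 had 0 counts in every library, and COX7A1, COX8C and ATP5MGL were each under 0.01 CPM on average.

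Feeding for 4 h raised 12 of the 13 mitochondrial messages, and feeding for 1 h none by the test. Here and below a gene is called when its adjusted p is under 0.05 (edgeR's quasi-likelihood test, Benjamini-Hochberg over all 16414 genes tested). At 4 h, 42.3% of all genes tested were called, 23.2% higher and 19.1% lower. The median log2 fold change of the 13 was 0.67 and that of all genes tested was -0.0032. Of the nuclear subunit genes, 26 of 84 were called, 14 higher and 12 lower, with a median of 0.01. That split was 12 higher and 16 lower with DESeq2's size factors, and the nuclear median was then -0.03. With total counts as the scale it was -0.0064.

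MT-ND2, a core membrane subunit of complex I, had 1037, 1449 and 1667 CPM in the starved libraries and 2065, 2567 and 2618 CPM after 4 h of feeding. All 3 fed libraries were above all 3 starved ones, and the log2 fold change was 0.80 (SE 0.20, adjusted p = 0.00631). MT-ATP6 had 986, 1218 and 1452 CPM starved and 1811, 2418 and 2581 CPM at 4 h, a log2 fold change of 0.90 (SE 0.21, adjusted p = 0.0034). MT-ATP8 was at 9.62, 8.86 and 10.3 CPM starved and at 14.4, 19.2 and 24.6 CPM at 4 h, the largest change of the 13 at 1.02 (SE 0.21, adjusted p = 0.000177). These groups did not overlap either. MT-CO2, the copper subunit of complex IV that accepts electrons from cytochrome c, had 1520.0, 1758 and 2273 CPM starved and 2558, 3279.8 and 3466 CPM at 4 h. MT-CO1 had 4507, 6118 and 7083 CPM starved and 7331, 10131 and 8697 CPM at 4 h, with an adjusted p of 0.0488, lost under some alternative settings. MT-CYB, the cytochrome b of complex III, had 1035, 1267 and 1579.6 CPM starved against 1656, 2290.0 and 2137 CPM at 4 h. MT-ND6, transcribed from the other strand, had 185, 203 and 239 CPM starved against 250.4, 342 and 334 CPM at 4 h, with a log2 fold change of 0.56. In all of these the lowest fed library lay above the highest starved library, though the starved libraries themselves spread widely.

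The other called mitochondrial messages were MT-ND1 (0.62 on the log2 scale), MT-ND4 (0.67), MT-ND4L (0.72), MT-ND5 (0.69) and MT-CO3 (0.62). MT-ND3 was the exception, with 264, 313 and 431 CPM starved and 431, 314 and 555 CPM fed, groups that overlapped, and a log2 fold change of 0.37 (adjusted p = 0.231). The count depended on the libraries: without starved replicate 1 it was 7 and without 4 h replicate 3 it was 6.

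After 1 h of feeding the 13 log2 fold changes were all above 0, from 0.29 to 0.66 with a median of 0.43, but none was called, where 0.646% of all genes were. Unadjusted, 5 of the 13 had p under 0.05 in edgeR. limma-voom called 1 and DESeq2's Wald test 0. MT-ND2 had 1788, 2318 and 2439 CPM at 1 h, above all 3 starved libraries, with a log2 fold change of 0.66 (adjusted p = 0.288). None of the 84 nuclear genes was called at 1 h in edgeR, DESeq2 or limma-voom. Their median was -0.07, and 3 had an unadjusted p under 0.05.

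**Figure D1:**
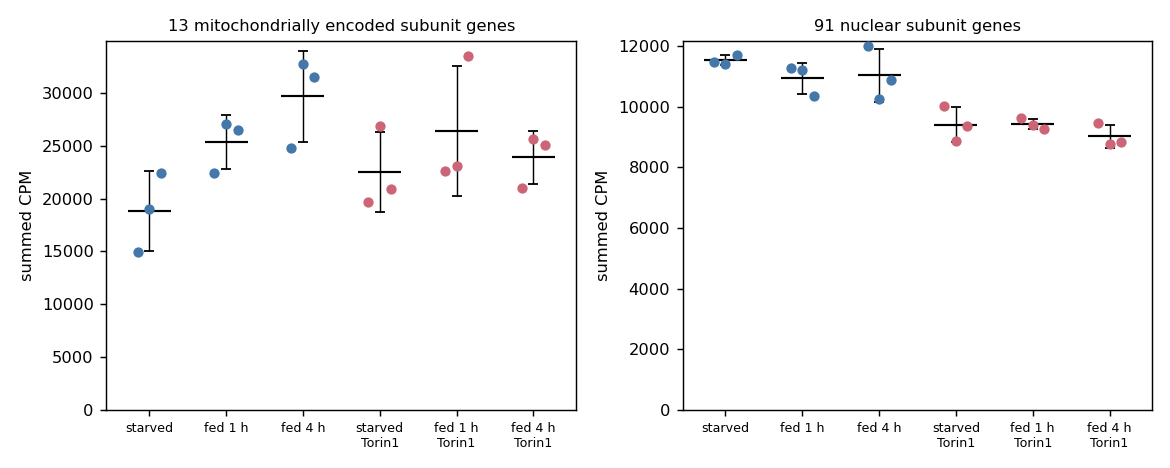
Summed CPM of the 13 mitochondrially encoded subunit genes (left) and of the 91 nuclear subunit genes (right) in each library. Points are libraries, bars the mean and SD of 3; blue is untreated and red is Torin1. The mitochondrial sum of the 3 starved libraries runs from 14946 to 22474 and that of the 4 h fed libraries from 24803 to 32737. On this TMM scale every Torin1 library is below every untreated one in the nuclear sum. As a percentage of all counts, not shown, they overlapped, with 0.963% in 1 h fed replicate 3 and 1.05% in starved Torin1 replicate 1.

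With Torin1 present, feeding called none of the 13 mitochondrial messages at 1 h or at 4 h. The background was 0.402% of genes at 1 h and 1.8% at 4 h. The medians of the 13 were 0.20 and 0.08, and none had an unadjusted p under 0.05 in either comparison. DESeq2's Wald test and limma-voom also called 0. MT-ND2 had 1466, 2049 and 1689 CPM in the starved Torin1 libraries and 1592, 1866 and 1946 CPM in the 4 h fed Torin1 libraries, groups that overlapped, with a log2 fold change of 0.054. The nuclear genes gave 1 call at 4 h, UQCRQ, a small subunit of complex III, with a log2 fold change of -0.41 (SE 0.11, adjusted p = 0.0446). It had 90.6, 75.3 and 71.2 CPM starved and 65.3, 54.8 and 58.4 CPM fed. That call was lost in 5 of the 6 fits that left out a library. The nuclear genes gave 0 calls at 1 h under Torin1 in edgeR and DESeq2 and limma-voom, with 2 at an unadjusted p under 0.05.

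The difference between these 4 h feeding effects, with Torin1 minus without, was tested as an interaction. It was below 0 for all 13 mitochondrial genes, with a median of -0.63 against -0.02 for all genes, and it was called for 3. Of all genes, 25.8% were called, 9.74% higher and 16% lower. The 3 were MT-ATP8 (-0.89, SE 0.30, adjusted p = 0.0254), MT-ATP6 (-0.85, SE 0.29, adjusted p = 0.0485) and MT-ND6 (-0.63, SE 0.22, adjusted p = 0.0463). For the other 10 the difference did not pass the threshold. MT-ND2, at -0.75 (SE 0.29), had an adjusted p of 0.0756, and MT-CO1, at -0.44, one of 0.324. The count of 3 was between 0 and 7 when a library was left out.

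Torin1 compared with no Torin1 in the same feeding state called a smaller share of the 13 mitochondrial messages than of all genes, of which 63.5% were called in starved, 63.1% in 1 h fed and 56% in 4 h fed cells. A call also depends on the spread between libraries, so a smaller share called is not by itself a smaller change. In starved cells 1 was called, MT-CO2, with 1520.0, 1758 and 2273 CPM without and 2397, 2975 and 2365 CPM with Torin1, a log2 fold change of 0.48 (SE 0.18, adjusted p = 0.0324). That call was lost with DESeq2's size factors (adjusted p = 0.0518) and without starved replicate 1, starved replicate 2 or starved Torin1 replicate 2. In 1 h fed cells none was called in edgeR, 1 in DESeq2's Wald test and 0 in limma-voom, with 1 at an unadjusted p under 0.05. The medians were 0.21 and 0.02. In 4 h fed cells all 13 log2 fold changes were below 0. Their median was -0.38, beside -0.32 for the 84 nuclear genes tested, and 3 of the 13 were called. MT-ATP8 had 14.4, 19.2 and 24.6 CPM without and 7.97, 10.6 and 8.59 CPM with Torin1 and fell by 1.10 on the log2 scale (SE 0.20, adjusted p = 3.51e-05). MT-ND4L had 176, 172 and 247 CPM without and 110.3, 153 and 96.3 CPM with Torin1 and fell by 0.73 (adjusted p = 0.0218). MT-ATP6 had 1811, 2418 and 2581 CPM without and 1363, 1522 and 1535 CPM with Torin1 and fell by 0.62 (adjusted p = 0.0205). In each the groups did not overlap. These are 3 of the 5 mitochondrial genes that overlap another. The others, MT-ND4 at -0.38 and MT-CO3 at -0.44 on the log2 scale, were not called. The count was 1 without 4 h replicate 3 or without 4 h Torin1 replicate 1, and 5 without 4 h replicate 1.

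The balance of the 2 genomes can be read within a library, free of any scaling factor, as the log2 ratio of the summed counts of the 13 mitochondrial genes to those of the 91 nuclear genes. It was 0.38, 0.74 and 0.94 in the starved libraries, 0.99, 1.27 and 1.36 at 1 h and 1.05, 1.67 and 1.53 at 4 h. With Torin1 it was 0.98, 1.60 and 1.16 starved, 1.24, 1.29 and 1.85 at 1 h and 1.15, 1.55 and 1.51 at 4 h. The starved libraries without Torin1 were the lowest group and overlapped none of the other 5. The mean was 0.69 ± 0.28 starved and 1.42 ± 0.33 at 4 h (SD, 3 libraries each), a difference of 0.73 with no overlap. Under Torin1 the same difference was 0.16 and the groups overlapped. Torin1 minus untreated was 0.56 in starved cells, with no overlap, and -0.02 in 4 h fed cells, where the groups overlapped. Without MT-ATP8, MT-ATP6, MT-ND4L and MT-ND4 these differences were 0.71, 0.15, 0.58 and 0.02. As a score over the chosen genes the ratio has no p-value.

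Both sums behind the ratio can be given on the CPM scale. In starved cells the mitochondrial sum was 14946, 19018 and 22474 CPM without and 19721, 26856 and 20963 CPM with Torin1, groups that overlapped. The nuclear sum was 11478, 11398 and 11718 CPM without and 10025, 8859 and 9355 CPM with Torin1, groups that did not. At 4 h both sums were lower with Torin1 on average. The mitochondrial ribosomal RNAs were also tested. MT-RNR1, the 12S RNA, was higher at 4 h of feeding with a log2 fold change of 2.13 (SE 0.47, adjusted p = 0.00284). MT-RNR2, the 16S RNA, was at -0.34 and not called (adjusted p = 0.0844). With Torin1, MT-RNR1 fell by 1.42 in 1 h fed (adjusted p = 0.0170) and by 1.27 in 4 h fed cells (adjusted p = 0.0323), and MT-RNR2 fell by 0.48 in starved (adjusted p = 0.0106) and by 0.56 in 1 h fed cells (adjusted p = 0.00434). The interaction was -1.91 for MT-RNR1 (adjusted p = 0.0480) and 0.65 for MT-RNR2 (adjusted p = 0.0341), the latter of opposite sign to the values of all 13 messages. MT-RNR1 ranged from 563 to 5228 CPM over libraries, and both ribosomal RNAs together were highest in 1 h replicate 1 (8306 CPM) and 4 h replicate 3 (8034 CPM). Ribosomal RNA was uneven between libraries of a group, and its part in the message values was not tested.

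**Figure D2:**
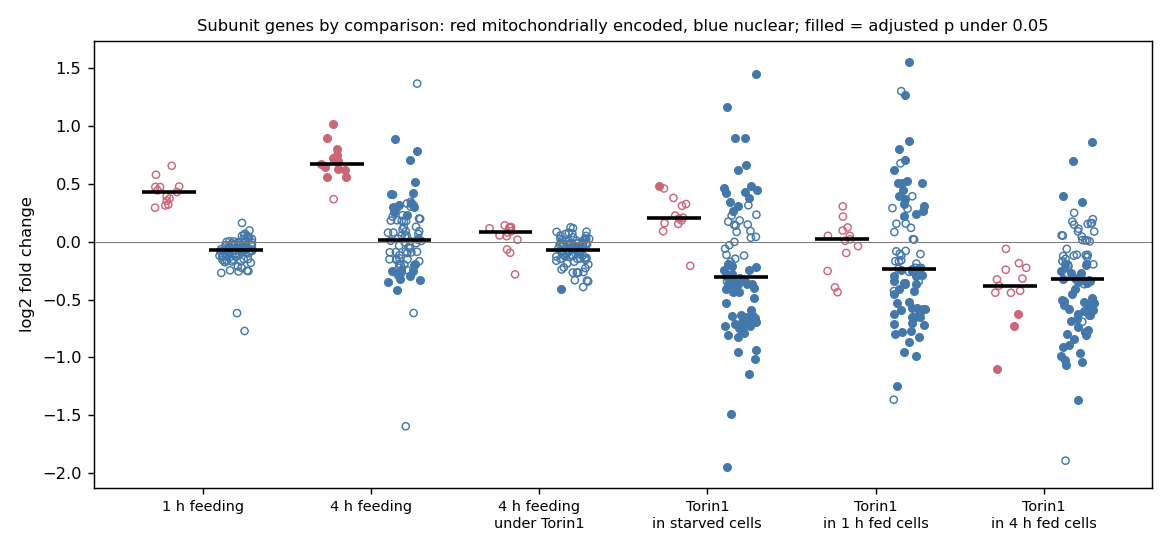
Log2 fold change of each tested subunit gene in 6 comparisons, red for the 13 mitochondrially encoded and blue for the 84 nuclear genes. Filled points passed an adjusted p under 0.05 and black bars are medians. The red points stand above 0 in both feeding comparisons without Torin1 and closer to 0 with it, and the blue points spread in both directions with Torin1.

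Torin1 lowered many nuclear subunit messages in every feeding state and raised a smaller number. In starved cells 61 of 84 were called, 46 lower and 15 higher, beside 63.5% of all genes (29.6% lower, 33.9% higher). In 1 h fed cells 57 were called, 39 lower and 18 higher, beside 63.1% (29.9% lower, 33.2% higher). In 4 h fed cells 48 were called, 44 lower and 4 higher, beside 56% (28.6% lower, 27.4% higher). The medians of the 84 were -0.30, -0.23 and -0.32, and those of all genes 0.09, 0.06 and 0.02. The share called was near the background in each state, so the number called says nothing particular about these genes. Lower calls outnumbered higher ones in each state. With total counts as the scale the medians of all genes were 0.23, 0.17 and 0.19. The nuclear medians were then -0.17, -0.12 and -0.16, and the counts were 34 lower and 23 higher, 29 lower and 21 higher, and 30 lower and 12 higher.

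The 3 Torin1 comparisons share no library. Called lower in all 3 were 34 of the 84 nuclear genes (40.5%), where 19.6% of all genes were, and called higher in all 3 were 4 (4.76%), where 18.8% of all genes were. No mitochondrial gene was called in all 3. The 34 were spread over the complexes: 14 of complex I, 2 of complex II, 5 of complex III, cytochrome c, 4 of complex IV and 8 of complex V.

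The electron carrier between complexes III and IV gave the largest fall of the nuclear genes with at least 5 CPM. CYCS, the somatic cytochrome c at chr7:25120091-25125361 on the minus strand, had 433, 458 and 455 CPM in starved libraries and 169.9, 161 and 148 CPM with Torin1. It fell by 1.49 on the log2 scale (SE 0.088, adjusted p = 6.18e-15), by 1.25 in 1 h fed cells and by 1.37 in 4 h fed cells (SE 0.088, adjusted p = 1.37e-13). At 4 h it had 436, 343 and 361 CPM without and 164, 149 and 129 CPM with Torin1, and the groups did not overlap in any state. CYC1, the cytochrome c1 of complex III that hands electrons to it, was at 0.17, 0.22 and -0.20, and only the middle value was called.

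In complex II, the succinate dehydrogenase, the 4 subunits differed. SDHB, the iron-sulfur subunit at chr1:17018722-17054170 on the minus strand, had 168, 169.9 and 152 CPM starved and 81.2, 67.1 and 74.3 CPM with Torin1. It fell by 1.14 (SE 0.095, adjusted p = 9.24e-12), 0.96 and 0.91 in the 3 states. The groups did not overlap in any. SDHD, a membrane anchor, fell by 0.72, 0.59 and 0.32. The other anchor, SDHC, was at -0.12, -0.12 and -0.062 with no call, and SDHA, the flavoprotein, at -0.21 (adjusted p = 0.00829), -0.11 and -0.12, called in starved cells, though not under every alternative setting.

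In complex I, 38 of 39 nuclear genes were tested, and Torin1 called 16 lower and 10 higher in starved cells, 14 and 11 in 1 h fed cells, and 19 and 2 in 4 h fed cells. For all genes the shares in these states were 29.6%, 29.9% and 28.6% lower and 33.9%, 33.2% and 27.4% higher. NDUFS6, a zinc-binding subunit of the matrix arm, had 76.8, 55.5 and 64.8 CPM at 4 h without and 35.3, 28.5 and 33.4 CPM with Torin1. It fell by 0.66, 0.57 and 1.02 in the 3 states. The accessory subunits NDUFB6 (-0.96, -0.77 and -0.68), NDUFA6 (-0.81, -0.72 and -0.63) and NDUFA3 (-0.73, -0.71 and -0.96) were lower in all 3. The core iron-sulfur subunit NDUFS1 was at -0.36, -0.36 and -0.20, all called lower. NDUFV1, the core subunit that binds FMN and NADH, was called higher in all 3, by 0.44, 0.45 and 0.34. It had 156, 149 and 169 CPM starved and 226, 198 and 219 CPM with Torin1.

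NDUFS4, an accessory subunit whose loss causes Leigh syndrome, also rose in all 3 states, by 1.16 (SE 0.17, adjusted p = 5.99e-07), 1.27 and 0.40 (adjusted p = 0.0374). It was expressed at a low level, with 11.8, 7.10 and 7.72 CPM starved and 19.8, 18.7 and 20.9 CPM with Torin1. NDUFC2, an accessory membrane subunit, had 43.9, 43.0 and 53.8 CPM starved, 39.3, 53.3 and 42.6 CPM at 1 h and 89.9, 73.3 and 96.8 CPM at 4 h. With Torin1 it had 93.6, 82.4 and 86.4 CPM starved, 83.5, 86.8 and 77.7 CPM at 1 h and 84.2, 76.8 and 76.0 CPM at 4 h. The starved and 1 h fed libraries without Torin1 lay below those of the other 4 groups. Its log2 fold change with Torin1 was 0.90 in starved cells, 0.87 in 1 h fed cells and -0.13 in 4 h fed cells, the last not called. NDUFC2 overlaps the readthrough gene NDUFC2-KCTD14, so its reads may have been divided between them. NDUFA1 rose by 0.89 in starved cells (adjusted p = 0.0215), from 24.0, 25.5 and 40.6 to 60.0, 57.5 and 49.7 CPM. That call did not hold under every alternative setting.

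In complex III all 10 nuclear genes were tested, and Torin1 called 6 lower in starved cells, 6 in 1 h fed cells and 5 in 4 h fed cells, with 1, 3 and 0 higher. For all genes the shares were 29.6%, 29.9% and 28.6% lower and 33.9%, 33.2% and 27.4% higher. UQCR11, a small accessory subunit, had 127, 83.1 and 103 CPM at 4 h without and 51.2, 49.8 and 49.3 CPM with Torin1. It fell by 0.83, 0.80 and 1.06 in the 3 states. UQCRQ, another small subunit, fell by 0.73, 0.83 and 0.99. UQCRFS1, the Rieske iron-sulfur protein, fell by 0.44, 0.26 and 0.76. UQCRC1, a core subunit, fell by 0.24, 0.24 and 0.33. Reads of UQCRH, the hinge subunit, may be shared with its near copy UQCRHL.

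In complex IV, 12 of 17 nuclear genes were tested, and Torin1 called 8 lower and 2 higher in starved cells, 6 and 2 in 1 h fed cells, and 5 and 1 in 4 h fed cells. For all genes the shares were 29.6%, 29.9% and 28.6% lower and 33.9%, 33.2% and 27.4% higher. COX7A2L, which helps join complexes III and IV into supercomplexes, had the largest rise of the nuclear genes in every state. It lies at chr2:42333546-42425088 on the minus strand and had 34.0, 29.6 and 27.2 CPM in starved libraries and 85.6, 76.9 and 85.3 CPM with Torin1. It rose by 1.45 (SE 0.10, adjusted p = 2.76e-13), 1.55 and 0.86 in the 3 states. Its paralog COX7A2, the common form of that subunit, was at 0.041, -0.10 and -0.21 with no call. COX4I1, the common form of the largest nuclear subunit, rose by 0.62 and 0.70 in starved and 1 h fed cells and was at 0.11 at 4 h, not called. It overlaps EMC8 on the annotation, and without a stated strand those reads cannot be told apart. COX7B fell by 0.64, 0.87 and 0.89, and COX5A, which binds close to COX4I1, by 0.40, 0.37 and 0.27. NDUFA4, counted with complex I above, was at 0.035, 0.12 and -0.27, called at 4 h.

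In complex V, 19 of 20 nuclear genes were tested, and Torin1 called 12 lower and 2 higher in starved cells, 10 and 2 in 1 h fed cells, and 12 and 1 in 4 h fed cells. For all genes the shares were 29.6%, 29.9% and 28.6% lower and 33.9%, 33.2% and 27.4% higher. ATP5F1B fell by 0.69, 0.59 and 0.45, while its partner in the catalytic hexamer, ATP5F1A, was at -0.20 (called), -0.08 and -0.12. The central stalk subunit ATP5F1C was at -0.34 (called), -0.17 and -0.12. ATP5MK, a small membrane subunit linked to dimers of the enzyme, fell by 1.01, 0.99 and 1.04, from 60.4, 64.8 and 68.6 to 36.6, 33.3 and 26.1 CPM in starved cells. The inhibitor ATP5IF1 was at -0.37 (adjusted p = 0.0423), -0.34 and -0.28, called in starved cells. The calls of ATP5F1A and ATP5IF1 did not hold under every setting.

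The 3 genes for subunit c, the rotor ring of ATP synthase, moved in opposite directions. They encode the same mature protein behind different import signals. ATP5MC1 had 79.1, 79.7 and 93.8 CPM starved and 60.1, 50.6 and 57.2 CPM with Torin1, and it fell by 0.59, 0.63 and 0.78 (SE 0.10, adjusted p = 1.75e-07) in the 3 states. ATP5MC3 had 168, 168 and 184 CPM starved and 147, 129 and 138 CPM with Torin1, and it fell by 0.33, 0.23 and 0.51. ATP5MC2 had 202, 207 and 200.2 CPM starved and 327, 302 and 338 CPM with Torin1, and it rose by 0.67 (SE 0.074, adjusted p = 3.51e-09), 0.80 and 0.70. In each state the Torin1 libraries of ATP5MC2 lay above all untreated ones, and those of ATP5MC1 below all untreated ones, while ATP5MC3 overlapped in 1 h fed cells. None of the 3 was called with feeding.

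**Figure D3:**
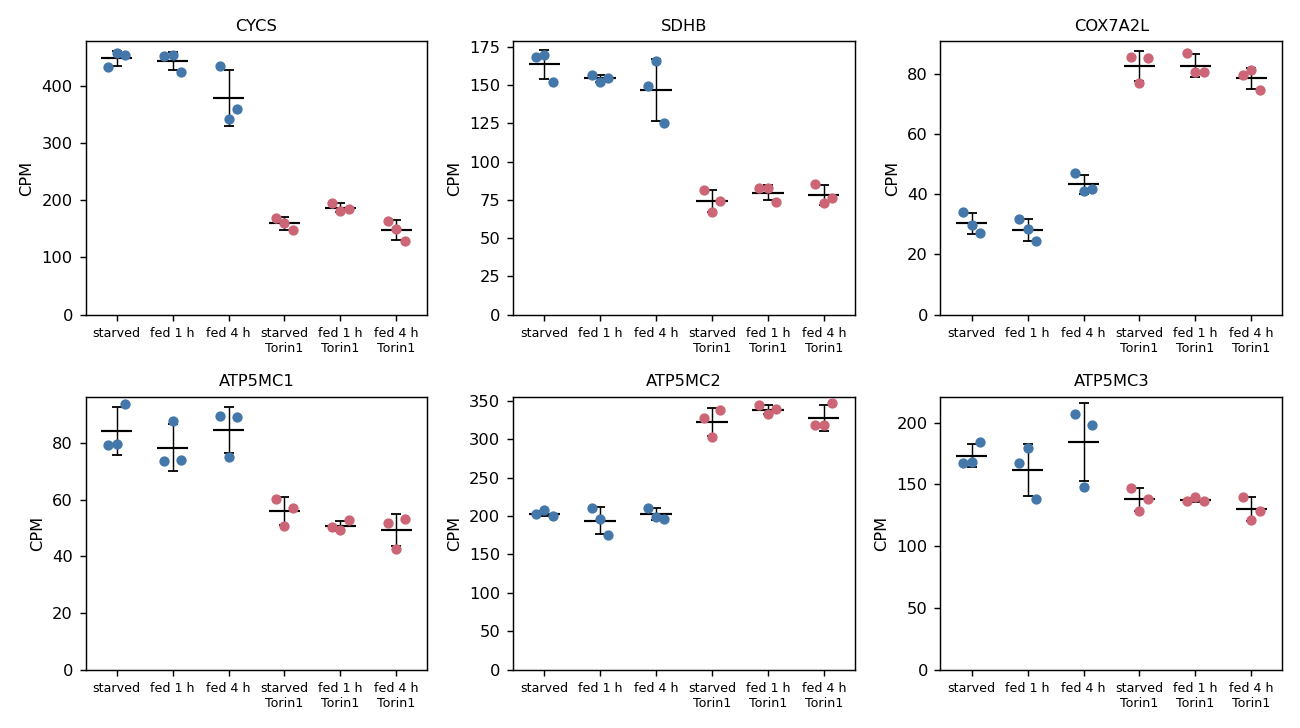
CPM of 6 nuclear subunit genes in each library, with the mean and SD of 3 libraries; blue is untreated and red is Torin1. CYCS and SDHB sit lower in all 9 Torin1 libraries, COX7A2L and ATP5MC2 sit higher, and ATP5MC1 sits lower while ATP5MC3 shifts less.

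**Figure D4:**
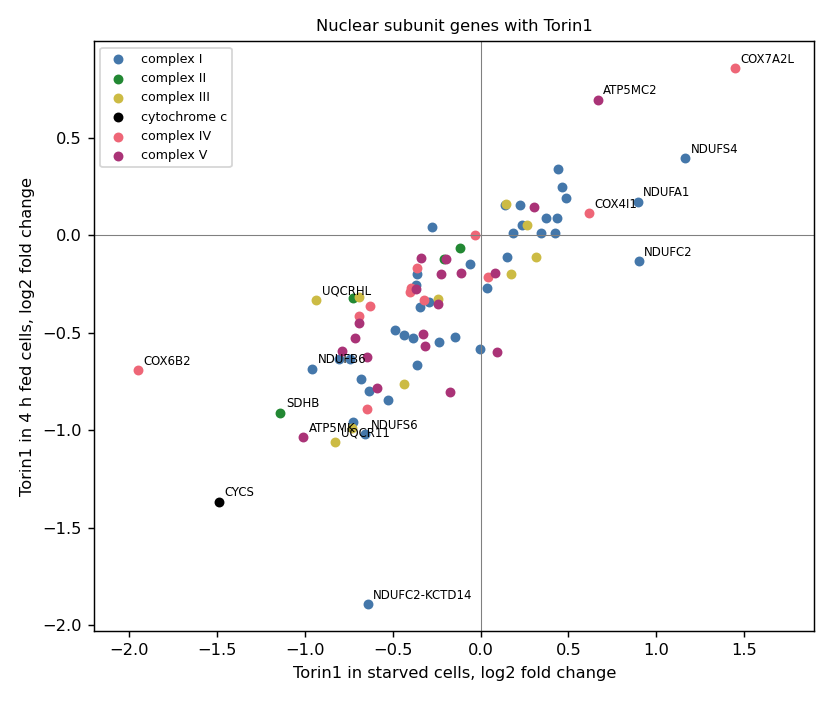
Log2 fold change with Torin1 in starved cells (horizontal) against that in 4 h fed cells (vertical) for the 84 nuclear subunit genes tested, coloured by complex. The comparisons share no library. CYCS, SDHB and ATP5MK lie at the lower left, COX7A2L and ATP5MC2 at the upper right, and NDUFC2 lies to the right but near 0 on the vertical axis; COX6B2 and NDUFC2-KCTD14 have very low counts.

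Feeding for 4 h called 26 of the 84 nuclear subunit genes, beside 42.3% of all genes. Torin1 called more of both in every state. Of those called higher, NDUFC2 changed most (0.89, SE 0.11, adjusted p = 1.32e-07), followed by NDUFS4 (0.78), ATP5MF-PTCD1 (0.71), COX7A2L (0.52), NDUFS7 (0.42) and NDUFA5 (0.41). NDUFS7 carries the last iron-sulfur cluster before ubiquinone and had 56.9, 52.1 and 62.3 CPM starved and 78.3, 70.3 and 80.0 CPM at 4 h. Of those called lower without overlap of the groups, the largest changes were those of UQCRH (-0.41), SDHD (-0.35), COX6A1 (-0.33), NDUFB5 (-0.29), COX6B1 (-0.29) and ATP5F1B (-0.26). UQCRH had 315, 313 and 313 CPM starved and 279.8, 181 and 246 CPM at 4 h. CYCS was called lower by 0.24. By complex, 7 genes of complex I were called higher and 2 lower, and in complex V 2 were higher and 4 lower. This comparison and that of Torin1 in starved cells share the starved libraries, so their values for NDUFC2, NDUFS4 and COX7A2L are not independent. Of the 84, 17 were called without 4 h replicate 3 and 16 without starved replicate 2.

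The interaction at 4 h was called for 12 nuclear genes, 11 lower and 1 higher, beside the background above. With DESeq2's size factors it was 8 lower and 3 higher. The largest were NDUFC2 (-1.03, SE 0.16, adjusted p = 6.11e-06), NDUFS4 (-0.77), ATP5MF (-0.69), its readthrough ATP5MF-PTCD1 (-0.63), COX7A2L (-0.59, adjusted p = 0.00203) and NDUFA9 (-0.58). COX7A2L had 46.9, 41.0 and 41.8 CPM at 4 h without and 79.5, 81.3 and 74.4 CPM with Torin1, groups that did not overlap. The gene called higher was SDHD (0.40, adjusted p = 0.0131), which fell with feeding by 0.35 without Torin1 and was at 0.054 with it. The count was 4 without starved replicate 2 and 7 without 4 h Torin1 replicate 2.

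Promoters of the nuclear genes were searched for motifs of factors known to act on respiratory chain genes, in 250 bases before to 50 after the start (RefSeq, GRCh38.p14, both strands). Of the 91 nuclear genes, 71 had an entry. At least 1 of GCGCATGCG (core of the NRF1 motif), CCGGAAGT (ETS and GABPA motif) and AAGATGGCG (YY1 motif) was found in 25 of the 71 (35.2%). The share was 7.86% of all 27305 promoters and 14.7% of the 11718 promoters of genes tested here. Singly, the shares of the 71 were 14.1%, 14.1% and 11.3%, those of all promoters 2.10%, 4.44% and 1.85%, and those of the promoters of genes tested 3.63%, 8.36% and 3.76%. No motif contains another. The promoters below are those of SDHB and SDHD, lower with Torin1 in all 3 states, and of NDUFS4 and ATP5MC2, higher in all 3, with the motifs in capitals. SDHB is at chr1:17053983-17054282 (minus strand), SDHD at chr11:112086623-112086922 (plus), NDUFS4 at chr5:53560389-53560688 (plus) and ATP5MC2 at chr12:53676034-53676333 (minus).
SDHB: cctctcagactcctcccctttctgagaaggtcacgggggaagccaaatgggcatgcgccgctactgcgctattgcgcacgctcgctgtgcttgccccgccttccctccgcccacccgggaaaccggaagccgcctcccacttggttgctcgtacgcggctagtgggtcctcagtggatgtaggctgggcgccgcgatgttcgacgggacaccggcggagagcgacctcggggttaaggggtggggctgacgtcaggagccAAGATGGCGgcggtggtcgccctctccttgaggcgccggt
SDHD: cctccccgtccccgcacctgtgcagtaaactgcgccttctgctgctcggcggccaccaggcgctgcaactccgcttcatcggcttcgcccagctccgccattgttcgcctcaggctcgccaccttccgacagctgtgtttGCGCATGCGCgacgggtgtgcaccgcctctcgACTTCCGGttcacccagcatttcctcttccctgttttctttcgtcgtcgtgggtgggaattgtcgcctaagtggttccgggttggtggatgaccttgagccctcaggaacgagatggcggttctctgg
NDUFS4: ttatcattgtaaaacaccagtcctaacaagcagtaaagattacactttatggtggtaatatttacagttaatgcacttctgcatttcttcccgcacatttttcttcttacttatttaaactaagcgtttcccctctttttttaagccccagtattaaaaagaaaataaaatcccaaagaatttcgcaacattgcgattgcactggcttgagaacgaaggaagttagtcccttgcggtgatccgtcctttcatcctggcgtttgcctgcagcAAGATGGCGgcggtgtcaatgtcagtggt
ATP5MC2: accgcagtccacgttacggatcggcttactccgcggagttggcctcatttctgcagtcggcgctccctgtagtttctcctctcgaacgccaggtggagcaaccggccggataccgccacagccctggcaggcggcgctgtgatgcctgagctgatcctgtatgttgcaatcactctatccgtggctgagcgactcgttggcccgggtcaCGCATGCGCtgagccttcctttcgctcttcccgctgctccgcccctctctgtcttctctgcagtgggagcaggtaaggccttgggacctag
SDHB and NDUFS4 both hold the YY1 motif just after the start and moved in opposite directions with Torin1. SDHD holds 2 overlapping matches to the NRF1 core, 1 on each strand, and an ETS motif, and ATP5MC2 the NRF1 core on the minus strand. Of the genes lower in all 3 states with a promoter entry, 5 of 30 held the NRF1 core, 7 the ETS motif and 4 the YY1 motif. Of the 4 genes higher in all 3, 1 held the NRF1 core and 1 the YY1 motif. Of the 34 other tested genes with an entry, 4 held the NRF1 core, 3 the ETS motif and 3 the YY1 motif. The promoters of CYCS and ATP5MC1, lower in all 3, and of NDUFV1 and COX7A2L, higher in all 3, held none of these motifs. A match is a description of letters and no measure of binding.

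Torin1 also shifted which isoforms were counted for some nuclear genes. Isoform use was tested for 71 of the nuclear genes, among 10700 genes with at least 2 isoforms (edgeR's diffSpliceDGE, gene-level test). It was called for 18 with Torin1 in starved cells (15.1% of all genes tested), for 10 with Torin1 in 4 h fed cells (11.3%), and for 1 with 4 h feeding, NDUFS1 (3.29%, adjusted p = 0.00801).

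SDHC was called with adjusted p = 8.67e-07 in starved and 1.6e-08 in 4 h fed cells, although its gene total was not called. SDHC-202, an annotated isoform of 13566 bases whose last exon is 13012 bases, took 30.6, 32.0 and 32.2% of the gene's counts in starved libraries and 49.7, 53.0 and 54.0% with Torin1. At 4 h it took 32.2, 31.2 and 31.6% without and 54.0, 54.6 and 54.8% with Torin1. The 1127-base SDHC-201 went from 34.2% ± 0.99 to 22.4% ± 2.48 in starved cells (SD, 3 libraries). NDUFS1 (adjusted p = 0.00253 and 0.00105) showed a like shift. NDUFS1-201, of 11819 bases with a last exon of 9460, took 24.3, 22.3 and 26.7% starved and 47.5, 46.8 and 47.9% with Torin1. The 2371-base NDUFS1-205, which has the same coding length of 2181 bases, went from 44.2% ± 7.26 to 30.5% ± 6.81.

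UQCRC2, a core subunit of complex III, was called with adjusted p = 3.18e-11 and 2.36e-06. Its 535-base UQCRC2-213 went from 12.3% ± 1.18 to 1.93% ± 0.25 in starved cells, and the main form UQCRC2-201 from 84.6% ± 2.12 to 94.5% ± 1.23. ATP5PF, a stalk subunit of complex V, was called with adjusted p = 7.28e-07 in starved cells, where ATP5PF-207 went from 7.69% ± 0.61 to 0.662% ± 0.22. In COX7A2L (adjusted p = 0.011 and 0.000204) the 3056-base COX7A2L-202 went the other way from the long SDHC and NDUFS1 forms. It took 8.26, 11.0 and 23.0% starved and 1.79, 0.416 and 1.13% with Torin1, with starved replicate 3 far above the others. Within the subunit c family, ATP5MC3-201 (5484 bases, against 795 for ATP5MC3-203 with equal coding length) took 6.43, 7.25 and 8.94% starved and 15.4, 16.8 and 22.4% with Torin1. The gene was called in starved cells (adjusted p = 0.0198) and not in 4 h fed cells (0.468). Isoform counts are estimates of the authors' program, and GENCODE release 29 was matched to them here. With a library left out, between 6 and 13 genes were called for Torin1 in starved cells.

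**Figure D5:**
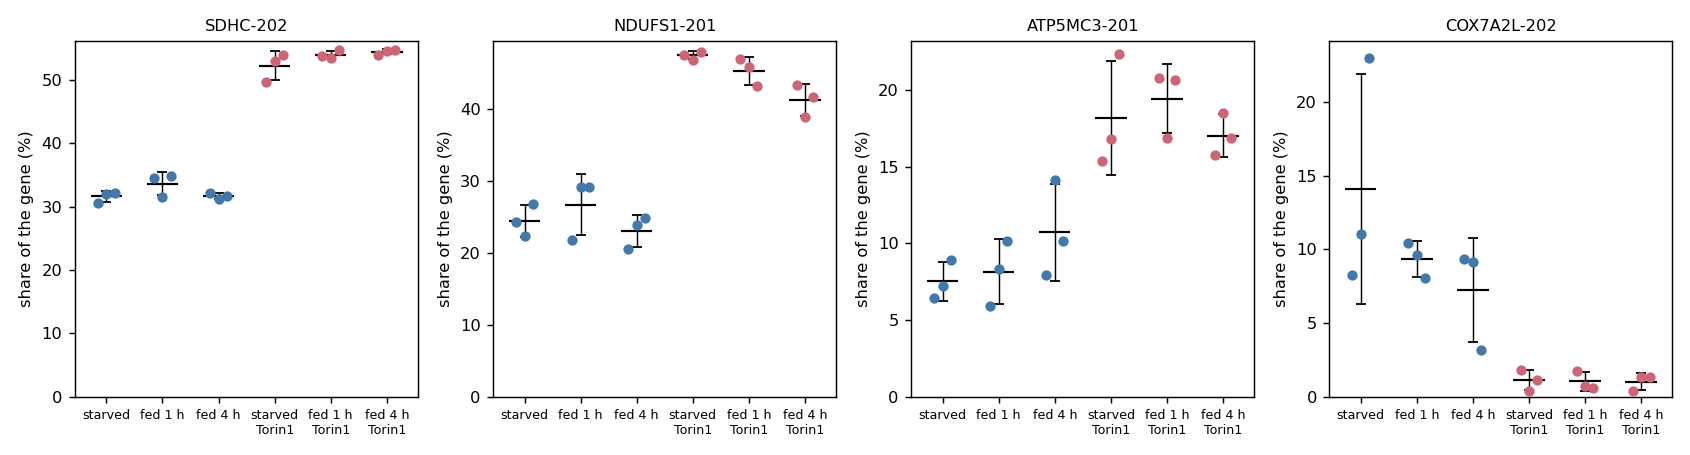
Share of the gene's counts (%) given to SDHC-202, NDUFS1-201, ATP5MC3-201 and COX7A2L-202 in each library, with the mean and SD of 3; blue is untreated and red is Torin1. The first 3 are higher in every Torin1 library than in any untreated one, and COX7A2L-202 is lower in every one.

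Genes that build the complexes, and those that make and process mitochondrial RNA, were followed as 2 lists. All 51 assembly factors and all 32 mitochondrial transcription and RNA genes were tested. After 4 h of feeding 16 assembly factors were called higher and 11 lower, with a median of -0.04. Over all genes these shares were 23.2% higher and 19.1% lower. The smallest p-values were those of TACO1, a translational activator of MT-CO1 (2.82), UQCC3, an assembly factor of complex III (1.97), and PET117, of complex IV (2.87). Of the RNA genes, 13 were higher and 3 lower at 4 h, with a median of 0.14. They were led by TEFM, the mitochondrial transcription elongation factor (1.83), FASTKD1 (1.34) and ELAC2, which cuts tRNA ends (0.76). The interaction was called lower for TEFM (-1.78), FASTKD1 (-1.52), ELAC2 (-0.77) and TACO1 (-2.73). TACO1 was itself raised by Torin1 in starved cells, by 2.15, so its 2 feeding effects start from different levels. In all, the interaction was called for 13 RNA genes lower and 1 higher, beside 16% and 9.74% of all genes.

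With Torin1, 21 of the 32 RNA genes were called lower and 5 higher in starved cells, 19 and 4 in 1 h fed cells, and 26 and 0 in 4 h fed cells. Of all genes, 29.6%, 29.9% and 28.6% were called lower and 33.9%, 33.2% and 27.4% higher in these states. The medians were -0.43, -0.37 and -0.72. TWNK, the mitochondrial DNA helicase, fell by 1.40, 1.49 and 1.65, TFB2M, a mitochondrial transcription factor, by 1.76 and 1.79 in the first 2 states, and FASTKD5 by 1.61 in 4 h fed cells. Of the assembly factors, 24, 24 and 25 were called lower and 15, 14 and 7 higher. ATPAF1, a chaperone of complex V, rose by 1.97 and 2.14 in starved and 1 h fed cells, and TMEM70, also of complex V, fell by 1.62 in starved and 1.55 in 4 h fed cells.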

How the data were processed

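The authors deposited RSEM expected counts per gene and per isoform, and the submitters' processing notes also name STAR and DESeq2, without versions. Those notes give a C. elegans build, although the identifiers are human Ensembl ones, and the human build and annotation were not given in the sources used here. Of the gene values 3.32% were not whole and were rounded. Symbols came from a table of gene names (60295 identifiers) and from GENCODE release 29 (309 more); 98.87% of isoform counts were in isoforms matched to that release, which also gave coordinates on GRCh38.

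edgeR 4.0.16 (R 4.3.3) fitted all 18 libraries with 6 group means after TMM scaling and a filter at a minimum count of 10 (robust quasi-likelihood), and isoform use was tested by diffSpliceDGE in the same way. 8 comparisons were made. A gene was called at an adjusted p under 0.05. SE is the log2 fold change divided by the root of F. Alternatives used DESeq2 1.42.0, limma 3.58.1, other scaling, no filter, a replicate block, only the groups compared, and each library left out. Libraries of a group differed beyond sampling noise. The scripts were tested on simulated data.

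The subunit genes and the gene lists were chosen with earlier results of these data known. Named were the 13 mitochondrial genes, up to 6 nuclear genes higher and 6 lower in each comparison (called, at least 5 CPM on average, groups not overlapping), a set list of subunits, the 4 isoform genes with the smallest p and, of other lists, the 3 with the smallest p; ATP5MC3 isoforms and the promoters shown were picked after their values were seen. Of the 91 nuclear genes, 58 overlap another gene, 45 on the opposite strand.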

Additional observations from a re-analysis of the deposited data

Results flagged for a closer look

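For 15 subunit genes the effect of 4 h of feeding differed between cells with and without Torin1 by the interaction test (edgeR, adjusted p under 0.05). They were 3 of the 13 mitochondrial and 12 of the 84 nuclear genes tested. Of all genes tested, 25.8% were called, 16% lower and 9.74% higher, so subunit genes were not called more often than others. The values are the feeding effect with Torin1 minus that without, on the log2 scale. Of the mitochondrial genes these were MT-ATP8 (-0.89), MT-ATP6 (-0.85) and MT-ND6 (-0.628). In complex I they were NDUFC2 (-1.03), NDUFS4 (-0.768), NDUFA9 (-0.579), NDUFS7 (-0.411) and NDUFB7 (-0.373). In complexes III and IV they were CYC1 (-0.372), UQCRFS1 (-0.327), COX7A2L (-0.592) and COX4I1 (-0.506). In complex V they were ATP5MF (-0.689) and the readthrough ATP5MF-PTCD1 (-0.631), which share exons, so that reads may be divided between them. SDHD of complex II was the 1 gene with a positive difference (0.40). All of these fits share the same 12 libraries, and of the 13 recomputed under every alternative 9 lost the call in at least 1: MT-ND6, MT-ATP6, MT-ATP8, NDUFS4, UQCRFS1, CYC1, SDHD, ATP5MF and ATP5MF-PTCD1. Of the 12 nuclear calls, only NDUFC2, COX7A2L, NDUFA9 and COX4I1 were left without starved replicate 2, so those of NDUFS7 and NDUFB7 were lost there too.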

How the results depend on the processing

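The number of nuclear genes called with Torin1 moved little when 1 library was left out. It was between 53 and 57 in starved cells (61 with all libraries), 49 and 62 in 1 h fed cells and 43 and 50 in 4 h fed cells. Their split by direction moved with the scaling. With total counts, 34 were lower and 23 higher in starved cells, against 46 and 15 with TMM. In 1 h fed cells these were 29 and 21 against 39 and 18, and in 4 h fed cells 30 and 12 against 44 and 4. The number of mitochondrial genes called moved more. At 1 h of feeding limma-voom called 1 mitochondrial gene. For Torin1 in starved cells the count of 1 was 0 with DESeq2's size factors or only the groups compared, 2 with no filter, and 4 with total counts or limma-voom. In 1 h fed cells it was 1 with DESeq2's size factors or Wald test and 3 with only the groups compared. In 4 h fed cells the count of 3 was 1 with total counts, 5 with DESeq2's Wald test, 7 with only the groups compared and 8 with limma-voom. The interaction called 1 with DESeq2's size factors or total counts and 7 with limma-voom. For nuclear genes under Torin1, 1 h of feeding called 1 with no filter or only the groups compared, and 4 h called 0 with total counts or limma-voom, 2 with no filter and 3 with only the groups compared.

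Over all genes tested, same-numbered libraries deviated together little: 3 of 21 pairs correlated above 0.1, and the range was -0.03 to 0.16. The main fits therefore did not pair the libraries by number. For the 13 mitochondrial messages, though, replicate 1 had the lowest summed CPM in each of the 6 groups. It also had the lowest log2 ratio to nuclear counts in each group. A shared replicate effect on these genes was not tested beyond the block given next. A replicate block called 2 mitochondrial genes at 1 h of feeding, 4 for Torin1 in starved, 1 in 1 h fed and 6 in 4 h fed cells, and 8 in the interaction.

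With 1 library left out, mitochondrial calls ran from 6 to 12 at 4 h of feeding (7 without starved replicate 1, 6 without 4 h replicate 3), from 0 to 4 for Torin1 in starved cells (0 without starved replicate 1 or 2, 4 without starved replicate 3, and 2 and 3 without starved Torin1 replicates 1 and 3), from 0 to 1 in 1 h fed cells (1 without 1 h Torin1 replicate 1) and from 1 to 5 in 4 h fed cells (1 without 4 h replicate 3 or 4 h Torin1 replicate 1, 5 without 4 h replicate 1). In the interaction they ran from 0 to 7: 0 without starved replicate 2, 4 h replicate 3, starved Torin1 replicate 2 or 4 h Torin1 replicates 1 or 3, 1 without starved replicate 1, 4 h replicate 2 or starved Torin1 replicate 1, 5 without 4 h replicate 1 and 7 without starved replicate 3. Nuclear calls ran from 16 to 28 at 4 h (16 without starved replicate 2, 17 without 4 h replicate 3), from 0 to 1 at 4 h under Torin1 (1 only without starved Torin1 replicate 3) and from 4 to 15 in the interaction (4 without starved replicate 2, 7 without 4 h Torin1 replicate 2). Isoform calls ran from 0 to 2 at 4 h of feeding (0 without starved replicate 2 or 4 h replicates 1 or 3, 2 without 4 h replicate 2), from 6 to 13 for Torin1 in starved cells (7 and 6 without starved replicates 1 and 2, and 10, 8 and 7 without starved Torin1 replicates 1, 2 and 3) and from 6 to 11 in 4 h fed cells (6 without 4 h Torin1 replicate 2). The log2 ratio of mitochondrial to nuclear counts differed between 4 h and starved libraries by 0.58 to 0.92, under Torin1 by 0.02 to 0.33, and between Torin1 and untreated libraries by 0.38 to 0.70 in starved and -0.20 to 0.11 in 4 h fed cells. No named gene reversed a call under any of these settings. Calls lost in at least 1 were those of MT-CYB, MT-CO1, MT-ND4, MT-ND1, MT-CO3, MT-ND4L, NDUFS1, COX6B1, NDUFB5, NDUFV3, ATP5F1C, CYCS and CYC1 at 4 h of feeding, and of UQCRQ under Torin1. For Torin1 in starved cells they were MT-CO2, UQCRC1, SDHA, NDUFA1, ATP5IF1, ATP5F1A and ATP5MC3, in 1 h fed cells UQCRC1, COX6A1, ATP5MC3, UQCRFS1 and CYC1, and in 4 h fed cells MT-ATP6, MT-ND4L, NDUFS1, NDUFS4, COX5A, NDUFA4 and SDHD. Fits with fewer libraries have fewer degrees of freedom; the cause of the other changes was not tested.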

Other observations

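Within the 13 mitochondrial messages, which need no scaling against nuclear RNA, shares shifted with Torin1. MT-CYB took from 6.66% to 7.31% of the 13 in the 9 untreated libraries and from 7.80% to 8.57% in the 9 Torin1 libraries, so that no libraries overlapped. MT-CO2 took on average 9.84% in starved libraries and 11.5% with Torin1. MT-ATP6 took 7.63% at 4 h without and 6.18% with Torin1, and MT-ATP8 0.065% and 0.038%. MT-CO1, the most abundant, took from 27.6% to 32.2% in all libraries. These shares were looked at after the values were seen, and shares of 1 sum depend on one another.

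Counts of the mitochondrial tRNA genes were 0 in every library. Among nuclear copies of mitochondrial genes, MTATP6P1 had 13934 counts and MTCO1P12 11210 over all 18 libraries, against 355139 for MT-ATP6, 1591338 for MT-CO1 and 2404 for MT-ATP8. Pseudogenes of the nuclear subunit genes took between 0.031% and 0.118% of those genes' counts. The longest tested isoform was followed in the subunit genes with isoform use called for Torin1 in starved cells. Its share was higher in every Torin1 library than in any starved library for 11, lower for 2 and overlapping for 5. For Torin1 in 4 h fed cells it was higher for 6, lower for 2 and overlapping for 2. These genes had already passed the isoform test in the same libraries. The share among all genes called for isoform use was not computed, so the counts say nothing particular about subunit genes. Both counts were made after the values were seen.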
